A study of Mus musculus with 32 samples.

Results

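Chronic constriction injury (CCI) of the sciatic nerve, a loose ligature around the main nerve of the hind leg that is a standard rodent model of neuropathic pain, was compared with sham surgery in the midbrain of control mice. The members were chosen by their labels alone, 4 arrays of CCI-operated control mice and 4 arrays of sham-operated control mice, which makes 8 of the 32 arrays of the series. The whole study crossed surgery (CCI or sham), genotype (mice lacking the cholecystokinin B receptor gene Cckbr, labelled KO, or controls) and brain region (midbrain or medulla), with 4 mice per genotype and surgery and both regions taken from each mouse. Every array measured RNA from a piece of tissue of 1 mouse on an Affymetrix mouse expression array, in which a probe set of short oligonucleotides reports the level of a transcript as a fluorescence intensity.

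The CCI group was therefore control genotype, sciatic nerve ligated, midbrain, and the sham group was control genotype, sham-operated, midbrain. Neither group carried the Cckbr deletion. The strain, sex and age of the mice, the time between surgery and dissection and the side of the brain taken are not given in the sources used here. Because the samples were whole pieces of tissue, a lower level can come from fewer cells of a type or from less RNA per cell, and the 2 cannot be told apart in these data.

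The midbrain holds the periaqueductal grey, which sends commands by way of the rostral ventromedial medulla to the spinal cord and can dampen or strengthen incoming pain signals. Opioid peptides and their receptors, endocannabinoids, GABA and glutamate act in this descending circuit, and cholecystokinin opposes opioid analgesia there. The same tissue contains the dopamine neurons of the substantia nigra and ventral tegmental area and the serotonin neurons of the dorsal raphe. In the spinal cord, nerve injury of this kind is known for activating microglia and astrocytes and inducing immediate early genes and chemokines.

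The tissue matched its label by its defining markers. Slc6a3, the dopamine transporter, averaged 558 ± 18.5 units in CCI midbrains and 601 ± 120 in sham midbrains, against 6.75 ± 7.38 in CCI medullas and 3.42 ± 4.79 in sham medullas (SD, n = 4 each). En1, a homeobox gene of the midbrain and anterior hindbrain, averaged 47.7 ± 8.39 units in CCI midbrains and 48.2 ± 11.1 in sham midbrains, against 7.33 ± 3.77 and 13.1 ± 11.9 in the CCI and sham medullas. Hoxa5, a patterning gene of the posterior hindbrain, read at most 31.8 units on the 8 midbrain arrays and at least 256 on the 8 control medulla arrays. Pitx3, a dopamine neuron transcription factor, did not separate the regions, with 36.4 ± 6.35 units in CCI midbrains and 45.6 ± 4.26 in sham midbrains, against 36.3 ± 4.48 and 37.05 ± 10.4 in the CCI and sham medullas. The genotype label held as well, since Cckbr averaged 166 ± 5.22 units in CCI midbrains and 154 ± 22.6 in sham midbrains of control mice, against 6.67 and 8.60 in CCI and sham midbrains of KO mice. The correlation of log2 values between arrays was 0.984 to 0.989 within the CCI group, 0.980 to 0.986 within the sham group and 0.982 to 0.989 between them. On the first principal component of the 8 arrays, which held 21.7% of the variance, the CCI arrays lay at -7.24, -12.1, -4.64 and -0.714 and the sham arrays at -19.6, 1.13, 12.4 and 30.8, so the sham arrays spread to both sides of the CCI arrays. The log2 ratio of the 3 prime to the 5 prime probe set of Actb, a sign of RNA integrity, was 0.56 to 0.77 on the CCI arrays and 0.42 to 0.68 on the sham arrays, and its part in the results was not tested.

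No transcript passed the test of CCI against sham midbrain. Of 22626 probe sets, 0 passed an adjusted p under 0.05 (limma, two-sided, Benjamini-Hochberg over all probe sets; 0% called), and the lowest adjusted p was 1. At an unadjusted p under 0.05 there were 681 probe sets (3.01%), of which 323 read higher after CCI (1.43%) and 358 lower (1.58%). The 4 CCI arrays and the 4 sham arrays did not overlap for 697 probe sets (3.08%), 349 higher and 348 lower after CCI (1.54% each). Differences are given below as the mean log2 level in CCI midbrains minus that in sham midbrains, where 1 unit is a doubling, on the scale log2(intensity + 16), which understates differences of dim probe sets. Intervals are 95% confidence intervals from the same fit, whose spread was pooled over all 16 midbrain arrays, KO mice included.

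The descriptions carry an array code of unstated meaning: CCI arrays 1 and 2 and sham array 2 share one, sham array 1 has a lower one, and arrays 3 and 4 of both groups share the highest. Within the highest code, 2 CCI against 2 sham arrays, the count past the threshold was 0 too. It was also 0 over the 2 lower codes pooled, again 2 against 2, a comparison that is not within 1 code because sham array 1 has a code of its own. Both fits took their spread from all midbrain arrays of those codes, KO mice included. With 2 arrays a group, a count of 0 cannot decide what part the code had.

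The differences were small as well as few. The median absolute log2 difference over all probe sets was 0.083, and 99 of 100 probe sets lay within 0.50. A single probe set had a median standard error of 0.14, 0.11 for probe sets with at least 100 units in the brighter group and 0.17 for dimmer ones, and the median interval reached 0.29 to each side of the estimate. Of the 11437 brighter probe sets, 172 had an unadjusted p under 0.05 (1.5%) and 350 did not overlap (3.06%), and among the 11189 dimmer ones 509 had such a p (4.55%). A difference of more than 1.5-fold was seen for 11 of the brighter probe sets, 5 higher and 6 lower after CCI, and of more than 2-fold for 1, Crym, which is described below with the array that carried it. The sham arrays varied more between mice than the CCI arrays: the median SD of log2 values was 0.13 within the CCI group and 0.16 within the sham group, and the sham SD was the larger for 60.5% of probe sets.

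With no transcript past the threshold, the genes described next were named by their values: in each direction the 12 genes of lowest unadjusted p among those whose arrays did not overlap and whose brighter group averaged at least 100 units. Altogether 156 genes met these conditions with higher levels after CCI and 157 with lower levels. Among all probe sets of that brightness 350 of 11437 did not overlap (3.06%), close to the 3.08% of all probe sets. The separation of the named genes is what selected them, so it is a description with no support of its own. The 12 higher genes read 1.15 to 1.37 times the sham level, and the 12 lower genes 1.14 to 1.49 times below it.

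Among the higher genes, 3 belong to the cytoskeleton and its traffic or to signalling at the membrane. Actn1, the actin cross-linker alpha-actinin 1, read 172, 161, 164 and 170.5 units on the CCI arrays, against 141, 139, 131 and 123 on the sham arrays (log2 difference 0.29, SE 0.069, interval 0.14 to 0.44). Its lowest CCI array stood clear of its highest sham array. Kifap3, the adaptor subunit of the kinesin-2 motor, read 913, 863, 891 and 899.9 units on the CCI arrays, against 664, 761, 796 and 801 on the sham arrays (log2 difference 0.24, SE 0.073, interval 0.081 to 0.40). Rasa1, a GTPase-activating protein that switches Ras off, read 383, 388, 380.2 and 367 units on the CCI arrays, against 296, 314, 339.9 and 332 on the sham arrays (log2 difference 0.23, SE 0.084, interval 0.055 to 0.41). For both genes the gap between the groups was narrower than the range of the sham arrays.

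Regulators of growth and of RNA were also in this group. Ccnd1, cyclin D1 of the G1 phase of the cell cycle, read 248, 236, 210.1 and 193 units on the CCI arrays, against 169.8, 159, 148 and 171 on the sham arrays (log2 difference 0.41, SE 0.14, interval 0.11 to 0.72). Ybx3, a cold-shock domain protein that binds DNA and RNA, read 496, 532, 486 and 481 units on the CCI arrays, against 414, 438, 324 and 380.1 on the sham arrays (log2 difference 0.35, SE 0.11, interval 0.12 to 0.58). Sham array 3 was the lowest for Ybx3, while the 4 CCI arrays lay close together. Ggnbp2, a protein first described as a partner of gametogenetin, read 128, 113, 104 and 99.4 units on the CCI arrays, against 80.4, 98.3, 78.9 and 77.4 on the sham arrays (log2 difference 0.35, SE 0.13, interval 0.080 to 0.62).

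Enzymes made up much of the rest. Abhd6, a serine hydrolase that breaks down the endocannabinoid 2-arachidonoylglycerol, read 270.3, 258, 255 and 235 units on the CCI arrays, against 154, 233, 220.2 and 211 on the sham arrays (log2 difference 0.31, SE 0.11, interval 0.073 to 0.54). St6galnac5, a sialyltransferase of ganglioside synthesis, read 379, 337, 420.1 and 325 units on the CCI arrays, against 262, 292, 294 and 292 on the sham arrays (log2 difference 0.33, SE 0.12, interval 0.086 to 0.58). Its 3 highest sham arrays were within a few units of each other and the other lay lower. Prss23, a secreted serine protease, read 137, 129, 153 and 147 units on the CCI arrays, against 103, 114, 102 and 125 on the sham arrays (log2 difference 0.31, SE 0.10, interval 0.098 to 0.53). Cemip2, a membrane protein that degrades hyaluronan, read 124, 109, 126 and 131 units on the CCI arrays, against 108, 101, 106 and 86.3 on the sham arrays (log2 difference 0.25, SE 0.091, interval 0.055 to 0.44). The remaining higher genes were Fndc3a, a protein with fibronectin type III domains, at 0.21 (interval 0.051 to 0.36), and Fam81a at 0.45 (interval 0.14 to 0.76), the widest of the 12 differences.

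The lower genes started with Pigr, the receptor that carries polymeric immunoglobulins across epithelia, which read 151, 159, 209 and 225 units on the CCI arrays, against 230.4, 299, 285 and 319 on the sham arrays (log2 difference -0.57, SE 0.15, interval -0.90 to -0.25). The highest CCI array lay just under the lowest sham array. Tgfbr3, betaglycan, a co-receptor of TGF-beta, read 116, 116, 119 and 124 units on the CCI arrays, against 177, 149, 133 and 177 on the sham arrays (log2 difference -0.37, SE 0.11, interval -0.61 to -0.13). Asic5, a channel of the acid-sensing and epithelial sodium channel family, read 93.1, 69.5, 92.4 and 84.5 units on the CCI arrays, against 105, 114, 126 and 161 on the sham arrays (log2 difference -0.49, SE 0.19, interval -0.89 to -0.090). Tmem266, a membrane protein with a voltage-sensor domain, differed by -0.36 (interval -0.61 to -0.11). These 4 are proteins of the cell surface, and none of their adjusted p-values was under 1 (limma).

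Several lower genes act at the nucleus. Lmna, which encodes lamins A and C of the nuclear envelope, read 102, 88.4, 110.3 and 111 units on the CCI arrays, against 116, 128, 127 and 175 on the sham arrays (log2 difference -0.35, SE 0.12, interval -0.61 to -0.094). Nup85, a subunit of the nuclear pore, differed by -0.23 (interval -0.39 to -0.073), and Dffa, the inhibitor that holds the apoptotic DNase in check, by -0.24 (interval -0.41 to -0.070). In the cytoplasm, Dpysl3, a CRMP family protein of growing axons, read 194, 187, 191 and 183 units on the CCI arrays, against 205, 224, 295 and 246 on the sham arrays (log2 difference -0.32, SE 0.12, interval -0.59 to -0.061). The gap between the groups was narrow beside the range of the sham arrays, and the CCI arrays lay close together. Acsf2, an acyl-CoA synthetase of mitochondria, differed by -0.42 (interval -0.71 to -0.13), B3gnt9, a glycosyltransferase, by -0.43 (interval -0.78 to -0.077), Saal1 by -0.32 (interval -0.56 to -0.079) and Sergef, a guanine nucleotide exchange factor linked to secretion, by -0.19 (interval -0.32 to -0.057).

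Where the array held a further probe set for these genes, it did not repeat the separation. Of the higher genes 10 had 13 other probe sets, with log2 differences of -0.18 to 0.24, and 5 of the lower genes had 9 others, with -0.080 to 0.11. The CCI and sham arrays overlapped for every one of those 22 probe sets, and their levels are not comparable with those above, since each probe set has its own brightness.

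**Figure D1:**
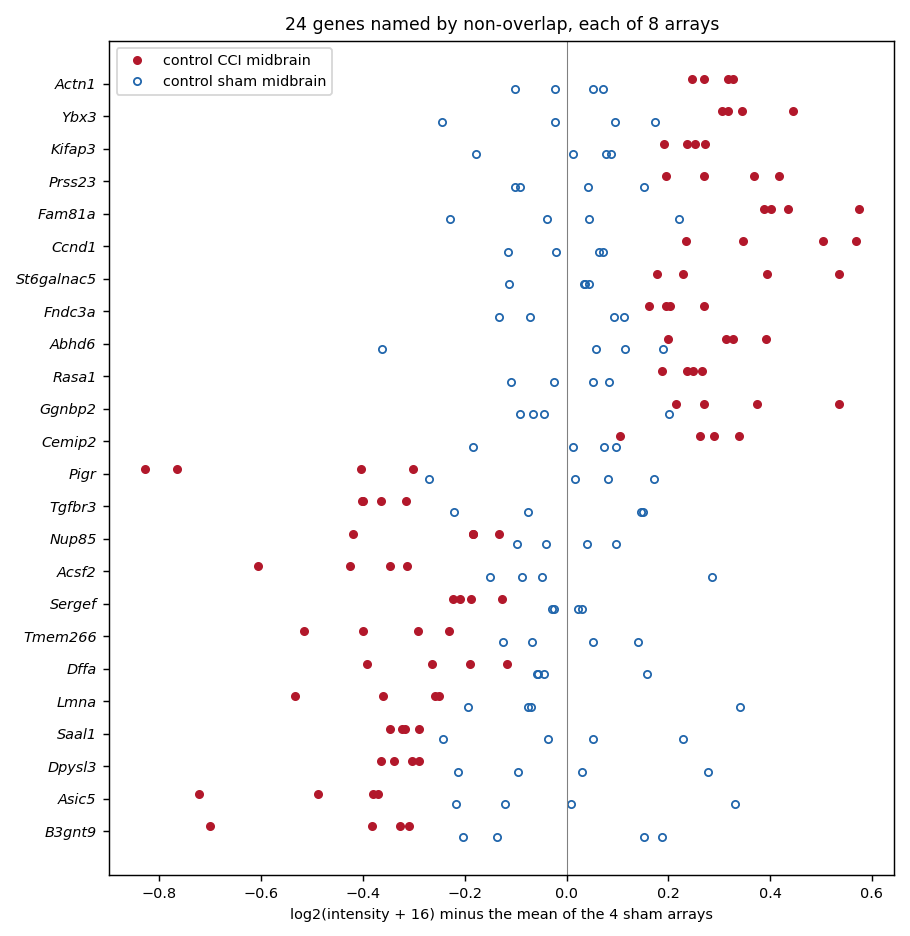
Level of the 24 genes named by their values on each of the 8 control midbrain arrays, drawn as the log2 difference from the mean of that gene's 4 sham arrays. Points are single arrays, CCI and sham in separate colours. The groups do not overlap because that chose the genes, and the mean differences run from -0.57 for Pigr to 0.45 for Fam81a.

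The question of the study, the state of pain-control systems after nerve injury, was looked at next through 40 genes of pain circuits, of which 36 could be measured. None of the 36 had an unadjusted p under 0.05 (limma) and none separated the groups (0 of 36, beside 3.01% and 3.08% of all probe sets). Each gene is given at its probe set of highest mean level, and other probe sets of a gene can differ in sign. Their median log2 difference was -0.038, 14 were higher and 22 lower after CCI, and the extremes were -0.41 for Ccl2 and 0.54 for Pdyn. For 25 of the 36 the interval lay wholly within 0.5 log2 units of 0, and for 34 within 1 unit, so differences beyond those bounds lay outside the intervals of these genes.

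Cholecystokinin and opioid genes come first, as the peptides of this circuit. Cck, the peptide precursor, read 686, 607, 769 and 671 units on the CCI arrays, against 656, 658, 720.0 and 772 on the sham arrays (log2 difference -0.039, SE 0.12, interval -0.29 to 0.21). The 2 groups covered almost the same range. Cckbr, its brain receptor, read 165, 159.6, 169 and 172 units on the CCI arrays, against 154, 167, 122 and 172 on the sham arrays (log2 difference 0.11, SE 0.15, interval -0.21 to 0.44), with sham arrays on both sides of the CCI arrays. Another, dimmer Cckbr probe set had the opposite sign, with overlap, at 20.7 units in CCI and 31.4 in sham midbrains (log2 difference -0.37, interval -0.85 to 0.12). Penk, the enkephalin precursor, read 489, 499, 445 and 558 units on the CCI arrays, against 627, 497, 468 and 516 on the sham arrays (log2 difference -0.076, SE 0.10, interval -0.30 to 0.14), again with overlap. Pdyn, the dynorphin precursor, read 51.7, 30.6, 21.9 and 23.5 units on the CCI arrays, against 25.1, 6.21, 11.97 and 25.2 on the sham arrays (log2 difference 0.54, SE 0.35, interval -0.21 to 1.29). Its spread between mice was wide in both groups, and its interval includes 0 and a doubling. Pomc, the endorphin precursor, and Pnoc, the nociceptin precursor, differed by -0.16 (interval -0.44 to 0.12) and -0.024 (interval -0.20 to 0.16).

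The opioid receptors are G protein-coupled receptors that lower neuronal firing. Oprm1, the mu receptor and target of morphine, read 34.7, 24.6, 23.7 and 23.6 units on the CCI arrays, against 0, 43.4, 20.02 and 45.4 on the sham arrays (log2 difference 0.16, SE 0.31, interval -0.52 to 0.83). These levels are near the bottom of the scale, and the interval allows changes in either direction of more than 1.2-fold. Oprd1, the delta receptor, read 31.1, 16.4, 44.3 and 10.6 units on the CCI arrays, against 26.1, 18.4, 5.16 and 9.82 on the sham arrays (log2 difference 0.41, SE 0.28, interval -0.20 to 1.01). Oprk1, the kappa receptor, and Oprl1, the nociceptin receptor, differed by -0.076 (interval -0.36 to 0.21) and -0.034 (interval -0.23 to 0.16). Other peptide genes of pain pathways overlapped between the groups too. Tac1, the substance P precursor, averaged 696 ± 9.52 units in CCI midbrains and 719.9 ± 33.9 in sham midbrains (SD, n = 4 each), and Npy 197 ± 22.99 units in CCI midbrains and 181 ± 27.1 in sham midbrains. Tacr1, the substance P receptor, differed by -0.28 (interval -0.59 to 0.020), Gal by 0.052 (interval -0.24 to 0.35), Sst by -0.036 (interval -0.29 to 0.21), Nts by 0.037 (interval -0.21 to 0.28) and Cartpt by -0.076 (interval -0.36 to 0.21).

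Among these pain-circuit genes, signs of neuronal activation or glial reaction did not separate the groups either. Fos, an immediate early gene, read 181, 252, 147 and 182 units on the CCI arrays, against 97.3, 281, 302 and 319.7 on the sham arrays (log2 difference -0.27, SE 0.31, interval -0.94 to 0.40). Sham array 1 lay below the other 7 arrays, and without it the log2 difference of Fos was -0.64 (SE 0.23), with an adjusted p of 1 (limma). Egr1, another immediate early gene, averaged 532 ± 52.3 units in CCI midbrains and 571 ± 150.4 in sham midbrains (SD, n = 4 each). Gfap, the intermediate filament of astrocytes, read 629.7, 535, 641 and 671 units on the CCI arrays, against 771, 469, 698 and 636 on the sham arrays (log2 difference -0.036, SE 0.14, interval -0.34 to 0.26), which kept the 2 groups in one range. Another Gfap probe set differed by -0.20 (interval -0.51 to 0.12), also with overlap. Aif1, the microglial calcium-binding protein Iba1, averaged 62.5 ± 2.999 units in CCI midbrains and 55.6 ± 14.3 in sham midbrains, and Itgam, the microglial integrin CD11b, 46.7 ± 13.2 units in CCI midbrains and 40.3 ± 11.02 in sham midbrains (SD, n = 4 each). Ccl2, a chemokine that draws in monocytes, read 40.02, 77.1, 90.4 and 111 units on the CCI arrays, against 77.6, 97.4, 102 and 159.9 on the sham arrays (log2 difference -0.41, SE 0.27, interval -0.98 to 0.16), levels that overlap. Il1b and Tlr4, an inflammatory cytokine and a pattern receptor, differed by -0.070 (interval -0.49 to 0.35) and 0.053 (interval -0.40 to 0.50). Both were dim, at 25.4 units in CCI and 27.1 in sham midbrains for Il1b and 16.3 and 15.0 for Tlr4. Bdnf, a neurotrophin, differed by 0.13 (interval -0.23 to 0.49), and its receptor Ntrk2 by 0.015 (interval -0.13 to 0.16).

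Transmitter genes of midbrain neurons overlapped as well. Th, tyrosine hydroxylase of dopamine synthesis, read 337, 312, 319.9 and 349 units on the CCI arrays, against 397, 315, 429.5 and 365 on the sham arrays (log2 difference -0.18, SE 0.097, interval -0.38 to 0.030). Slc6a3 differed by -0.085 (interval -0.38 to 0.21) and Slc6a4, the serotonin transporter, by 0.19 (interval -0.13 to 0.51). Gad1 and Gad2, which make GABA, differed by -0.15 (interval -0.31 to 0.0027) and -0.10 (interval -0.36 to 0.16), and Slc17a6, a vesicular glutamate transporter, by 0.015 (interval -0.11 to 0.14). For Slc17a6 the arrays read 2012, 1957, 1959 and 2032 in CCI midbrains and 1946, 1924, 2099 and 1911 in sham midbrains. Grin2b, an NMDA receptor subunit, and Camk2a, a synaptic kinase, had -0.37 (interval -0.77 to 0.033) and -0.35 (interval -0.73 to 0.035), both with overlapping arrays. Another, dimmer Grin2b probe set had the opposite sign, at 0.099 (interval -0.28 to 0.48). The Camk2a probe set averaged 9.19 units in CCI midbrains and 15.4 in sham midbrains, near the bottom of the scale. Cnr1, the cannabinoid receptor, differed by -0.079 (interval -0.45 to 0.29).

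**Figure D2:**
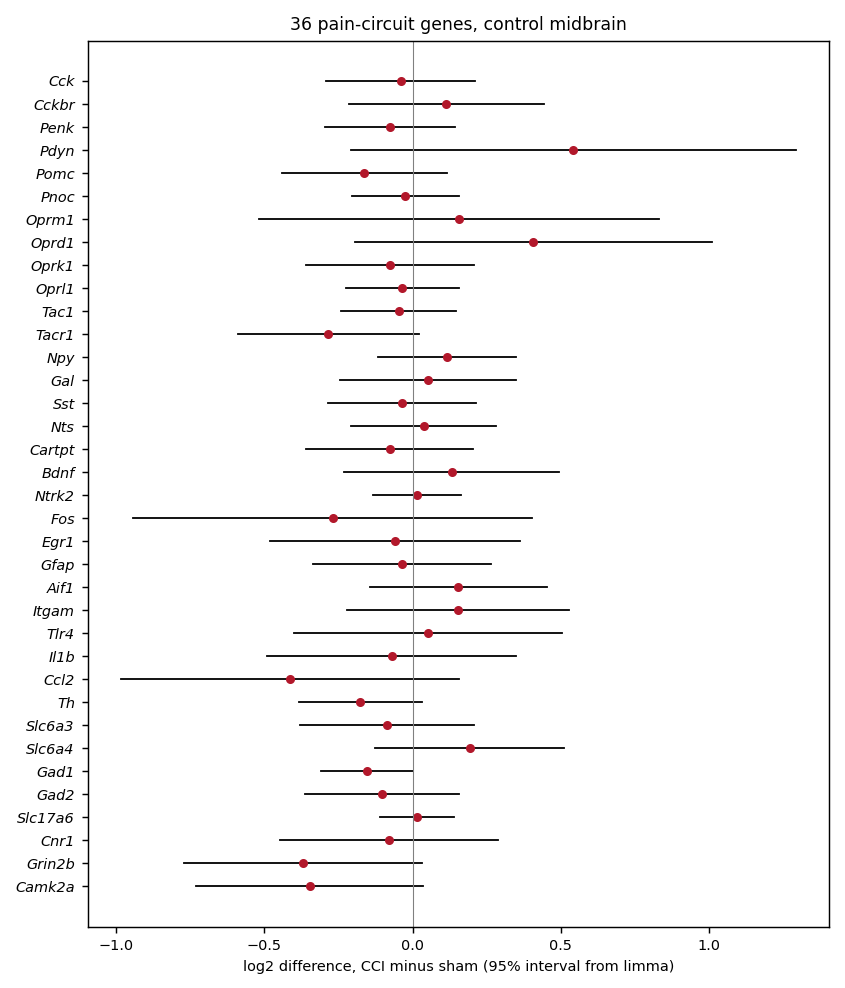
Log2 difference, CCI minus sham, of the 36 measured pain-circuit genes in control midbrain, with the 95% interval from limma as a line. All intervals cross 0 and the points lie between -0.41 (Ccl2) and 0.54 (Pdyn).

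A wider set of 33 lists, covering transmitters, channels, activity, glia, blood vessels, neighbouring tissues and stress, held 677 symbols, of which 566 different genes were measured. At an unadjusted p under 0.05 there were 17 of these (3.004%, 9 higher and 8 lower after CCI), beside 2.85% of all 12393 genes taken at 1 probe set each. The arrays did not overlap for 12 of the 566 (2.12%), beside 2.93% of all genes. The adjusted p passed for 0. The median log2 difference was between -0.072 and 0.10 for every list, beside 0.0059 over all genes. Of all 12393 genes, 6471 were higher after CCI and 5888 lower.

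Among signalling genes, the receptor list had Npy2r, a presynaptic receptor of neuropeptide Y, as 1 of 19 measured receptors at an unadjusted p under 0.05. Npy2r read 30.96, 20.6, 45.3 and 12.7 units on the CCI arrays, against 12.8, 11.5, 8.57 and 10.7 on the sham arrays (log2 difference 0.64, SE 0.23, interval 0.14 to 1.13), overlapping at its edges. In the endocannabinoid list this was Abhd6, 1 of 7. Of 16 glutamate receptors and transporters it was Grik1, a kainate receptor subunit, which read 91.7, 95.5, 109 and 95.5 units on the CCI arrays, against 69.2, 75.7, 83.7 and 69.8 on the sham arrays (log2 difference 0.33, SE 0.088, interval 0.14 to 0.52) and did not overlap. Ion channels studied in pain had 2 of 25, in opposite directions. Cacna1c, the pore of an L-type calcium channel, read 91.8, 62.9, 83.8 and 72.6 units on the CCI arrays, against 53.3, 46.8, 58.8 and 52.6 on the sham arrays (log2 difference 0.44, SE 0.12, interval 0.17 to 0.70), and Kcnd3, an A-type potassium channel, read 25.7, 18.4, 25.4 and 24.6 units on the CCI arrays, against 34.4, 29.4, 26.4 and 42.4 on the sham arrays (log2 difference -0.31, SE 0.13, interval -0.58 to -0.041). Both sets of arrays were apart and Kcnd3 was dim. No member of the opioid, dopamine, serotonin and noradrenaline, or GABA and glycine lists had such a p, and of the 16 dopamine neuron genes 11 were lower with a median of -0.063.

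Activity and injury genes held 3 such members. Of 32 immediate early genes 2 had an unadjusted p under 0.05, both lower after CCI: Egr4, a zinc finger factor, at -0.43 (interval -0.84 to -0.030), and Ier3 at -0.32 (interval -0.65 to -0.0044). Egr4 read 23.6, 49.4, 36.4 and 19.7 units on the CCI arrays, against 36.9, 37.4, 49.4 and 70.9 on the sham arrays, which overlap. Ier3, a stress-induced survival factor, read 274, 248, 288 and 316 units on the CCI arrays, against 332, 344, 360.4 and 386 on the sham arrays, which do not. In the same list 2 more genes did not overlap, with an unadjusted p above 0.05: Fosl2, a Fos relative, at -0.23 (interval -0.59 to 0.12), and Klf4, a zinc finger factor, at 0.38 (interval -0.088 to 0.86). The separated members, 9.4% of the list beside 2.93% of all genes, thus pointed both ways. The list as a whole had 13 higher and 19 lower members and a median of -0.022. Of 26 nerve injury and regeneration genes 1 had such a p, Sox11, a factor of axon growth, which read 67.1, 58.1, 57.4 and 60.1 units on the CCI arrays, against 45.2, 52.7, 45.2 and 49.1 on the sham arrays (log2 difference 0.26, SE 0.085, interval 0.079 to 0.44). None of the 24 synaptic plasticity genes did.

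Immune and glial lists held few such genes. Tlr6, a receptor for bacterial lipopeptides, was the 1 of 37 innate genes, with 0.40 (interval 0.039 to 0.76). H2-D1 and H2-K1, class I antigen-presenting molecules, were 2 of 27 interferon and antigen genes, with -0.25 (interval -0.50 to -0.0076) and -0.24 (interval -0.45 to -0.033). Both were lower after CCI, and their arrays overlapped, at 386 to 469 units in CCI midbrains and 449 to 565 in sham midbrains for H2-D1. H2-D1 and H2-K1 are related genes of similar sequence, so their probe sets may share transcripts, which was not checked. Tlr3, the receptor for double-stranded RNA, did not overlap, at 132 to 154 units in CCI midbrains and 121 to 128 in sham midbrains, with 0.18 (interval -0.066 to 0.42). Of 24 microglia and macrophage markers 0 had such a p, 16 were higher, 1 did not overlap (Ly86, an accessory protein of a Toll-like receptor, at 0.22 (interval -0.022 to 0.47)), and the summed level of the list ran over 4729 to 5156 units in CCI midbrains and 4524 to 5749 in sham midbrains. Of 22 astrocyte markers 16 were lower with a median of -0.028, and 1, Lcn2, had such a p. Lcn2, lipocalin 2 of reactive astrocytes, read 22.6, 33.6, 14.8 and 20.2 units on the CCI arrays, against 58.6, 94.2, 28.96 and 36.6 on the sham arrays (log2 difference -0.80, SE 0.33, interval -1.50 to -0.090), with 1 CCI array above the lowest sham array. Oligodendrocyte, pan-neuronal and vascular lists had 0 such members, with medians of 0.0040, -0.0090 and 0.0023.

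Stress, clock and chaperone lists held 1 such gene. Sgk1, a kinase that glucocorticoids induce, was the 1 of 24 glucocorticoid and stress genes at an unadjusted p under 0.05. It read 433, 544, 511 and 479 units on the CCI arrays, against 544, 574, 529.6 and 804 on the sham arrays (log2 difference -0.29, SE 0.13, interval -0.57 to -0.015), and the other 3 sham arrays lay well below sham array 4. Neither the 20 circadian clock genes nor the 30 heat shock and unfolded protein genes had such a member. Nr1d2, the clock repressor Rev-erb beta, did not overlap, at 1254 to 1388 units in CCI midbrains and 1396 to 1451 in sham midbrains, with -0.11 (interval -0.26 to 0.043). In the meningeal and fibroblast list 19 of 22 genes were higher after CCI, beside 6471 of all 12393 genes, with a median of 0.093. None had an unadjusted p under 0.05, and CCI array 3 was the highest array for 11 of the 22. The summed level ran over 9517 to 10990 units in CCI midbrains and 8634 to 10476 in sham midbrains.

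**Figure D3:**
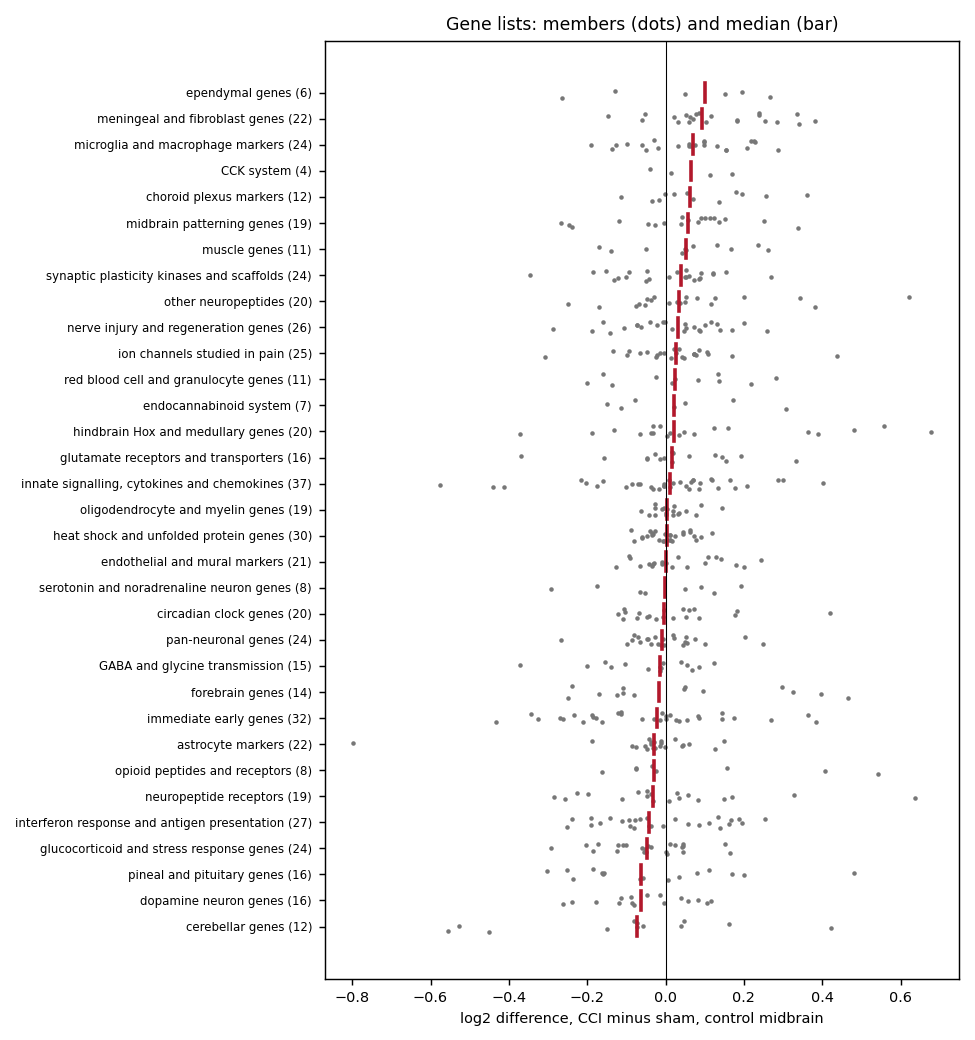
Log2 difference, CCI minus sham, for the measured genes of each of the 33 lists in control midbrain. Small points are genes and the thick marks are list medians, which lie between -0.072 and 0.10.

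Single arrays carried some of the wide differences. Crym, the thyroid hormone-binding protein mu-crystallin, read 15.8, 12.7, 374 and 6.83 units on the CCI arrays, against 6.24, 11.1, 11.1 and 1.74 on the sham arrays, so that 1 CCI mouse stood apart from the other 7. Ccn3, a secreted matricellular protein, showed the same array on both its probe sets, with 148, 158, 475 and 148 in CCI midbrains and 105, 80.4, 106 and 128 in sham midbrains on the first and 122, 158, 497 and 146 in CCI midbrains and 109, 78.5, 118 and 149 in sham midbrains on the second. Without CCI array 3 the log2 difference of Crym was 0.25 in place of 1.202, and those of Ccn3 were 0.48 and 0.31 in place of 0.87 and 0.73. CCI array 3 was also highest of the 8 for 11 of 22 meningeal and fibroblast genes, beside 12.9% of all probe sets, and sham array 4 for 7, beside 14.8%. CCI array 3 was highest too for Neurod6, a forebrain neuron factor, which read 17.9, 19.7, 63.6 and 18.9 in CCI midbrains and 27.9, 21.6, 11.3 and 14.4 in sham midbrains. Of the whole list of 14 forebrain genes, CCI array 3 was highest for 4 and sham array 3 for 6.

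Sham array 3 held raised cerebellar transcripts. Pcp2, a gene of Purkinje cells, read 135, 133, 129 and 146 units on the CCI arrays, against 141, 199, 370.2 and 173 on the sham arrays (log2 difference -0.55, SE 0.24, interval -1.07 to -0.040). Car8, also of Purkinje cells, read 255, 265, 214 and 272 in CCI midbrains and 259, 365, 654 and 235 in sham midbrains, and Gabra6, the GABA receptor subunit of cerebellar granule cells, 33.4, 29.5, 12.8 and 33.9 in CCI midbrains and 40.9, 48.3, 137 and 8.88 in sham midbrains. Sham array 3 was highest for 8 of the 12 cerebellar genes, beside 13.8% of all probe sets. It was also highest for Ttr, the transthyretin of choroid plexus, at 2001 units. The choroid plexus list as a whole did not follow Ttr: sham array 3 was highest for 2 of its 12 genes and CCI array 1 for 3. Without sham array 3 the log2 differences were -0.29 for Pcp2, -0.16 for Car8 and -0.084 for Gabra6, in place of -0.55, -0.45 and -0.53. Zic2, a zinc finger factor of the cerebellar list, was higher after CCI at 0.42 (interval 0.012 to 0.83). The summed level of the 12 cerebellar genes ran over 4488 to 4863 units in CCI midbrains and 4579 to 6261 in sham midbrains. Sham array 1 was highest for 13 of 24 microglia and macrophage markers, beside 16.2% of all probe sets, and sham array 4 for 11 of 32 immediate early genes, beside 14.8%. The part of these arrays in the results above was not tested further than by leaving each out.

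**Figure D4:**
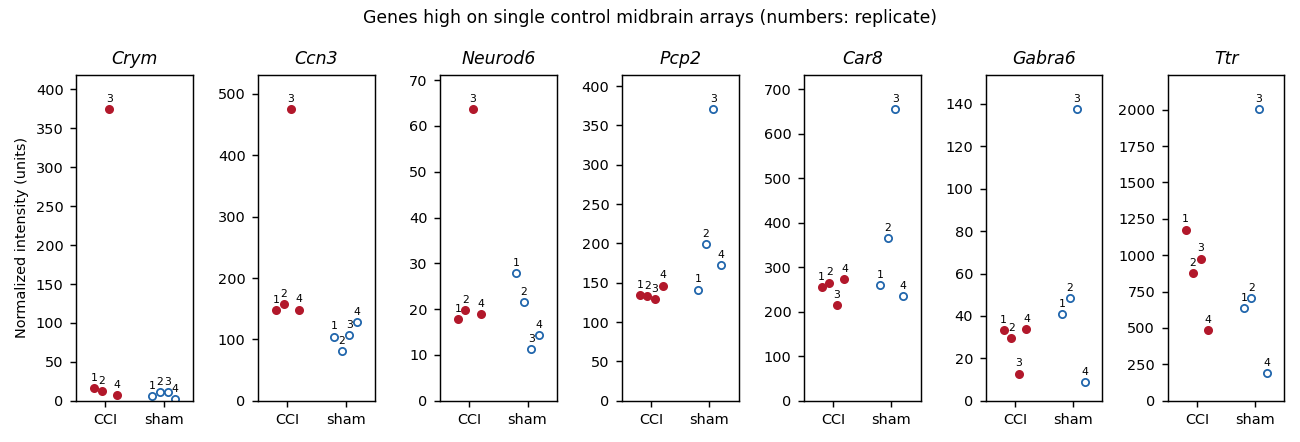
Level in intensity units of genes that single arrays carried, on each of the 8 control midbrain arrays, with CCI arrays left of sham arrays. CCI array 3 stands out for Crym (374 units) and Ccn3 (475 units), and sham array 3 for Pcp2 (370.2 units) and Car8 (654 units).

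The lowest unadjusted p-values belonged to dim probe sets. Trim47, a RING finger ubiquitin ligase, read 54.3, 59.2, 76.4 and 56.2 units on the CCI arrays, against 41.3, 25.7, 40.2 and 25.9 on the sham arrays (log2 difference 0.66, SE 0.15, interval 0.35 to 0.97), and Herc2, a large ubiquitin ligase, read 42.8, 40.8, 39.2 and 32.9 units on the CCI arrays, against 26.99, 25.2, 23.9 and 29.6 on the sham arrays (log2 difference 0.37, SE 0.084, interval 0.19 to 0.55). Neu1, the lysosomal sialidase, read 39.5, 35.1, 39.1 and 41.2 units on the CCI arrays, against 32.5, 22.6, 22.8 and 18.3 on the sham arrays (log2 difference 0.46, SE 0.11, interval 0.23 to 0.69). For all 3 the arrays were apart, at levels too low for the rule above, and they were singled out after their values were seen. Hoxa5 and Tbr1, patterning genes of the hindbrain and the forebrain, were dim list members at an unadjusted p under 0.05, with 24.7, 30.2, 13.1 and 31.8 in CCI midbrains and 17.3, 19.8, 2.92 and 8.85 in sham midbrains for Hoxa5 and 5.19, 13.6, 8.86 and 2.72 in CCI midbrains and 1.73, 0.47, 0 and 1.17 in sham midbrains for Tbr1. More than 2-fold apart were 6 probe sets, 3 in each direction, and all but Crym were dim.

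The same surgery was also carried out in KO mice, and the difference between the genotypes was tested as an interaction over the 16 midbrain arrays. It passed an adjusted p under 0.05 for 0 probe sets (0%, lowest adjusted p = 0.822, limma), and 1239 had an unadjusted p under 0.05 (5.48%). CCI against sham in KO midbrain alone gave 0 calls (0%), and 1864 probe sets fell under an unadjusted p of 0.05 (8.24%). Its sham group holds 2 arrays, KO sham 2 and 4, that lay apart from the other midbrain arrays at -36.0 and -26.4 on the first principal component. The log2 ratio of the 3 prime to the 5 prime probe set of Actb was 1.4985 on KO sham array 2. On the other midbrain arrays this ratio ran from 0.38 to 0.77, with KO sham array 4 at 0.73. Both KO sham arrays are also in the fit of the control comparison. Without KO sham array 2 the genotype interaction passed for 0 probe sets, with 1063 at an unadjusted p under 0.05. The part of RNA integrity in these counts was not tested. Of the 12 genes higher in control mice, 6 were higher in KO mice after CCI, with a median log2 difference of -0.023. Of the 12 lower genes, 4 were higher in KO mice, with a median of -0.16. Actn1 had 0.29 in control and -0.13 in KO midbrain, a difference of 0.42, and Kifap3 had 0.24 and -0.25, a difference of 0.48. Other genes lay close together in both genotypes: St6galnac5 had 0.33 in control and 0.30 in KO midbrain, Dpysl3 -0.32 and -0.30, and Lmna -0.35 and -0.32. None of the 24 genes passed the interaction test (lowest adjusted p = 0.822, limma). They were chosen by their control midbrain values, which are 1 side of each genotype difference, so that choice tends to widen these differences.

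In the medulla of the same control mice, CCI against sham gave 0 calls (0%), and 631 probe sets had a p under 0.05 before adjustment (2.79%). The region interaction passed for 0 probe sets (0%, lowest adjusted p = 0.960, limma), with 410 at an unadjusted p under 0.05 (1.81%). Of the 12 genes higher in midbrain, 10 were higher in medulla too, with a median of 0.086, and of the 12 lower genes 5 were higher in medulla, with a median of -0.052. Midbrain and medulla values come from the same 8 mice and are not independent. Prss23 had 0.31 in midbrain and 0.042 in medulla, a difference of 0.27, and Pigr had -0.57 and -0.081, a difference of -0.49. Fam81a had 0.45 in midbrain and 0.30 in medulla, and Abhd6 0.31 and 0.19. No region difference of the 24 genes had an adjusted p under 1 (limma). The choice of the genes by their midbrain values tends to widen these differences too.

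**Figure D5:**
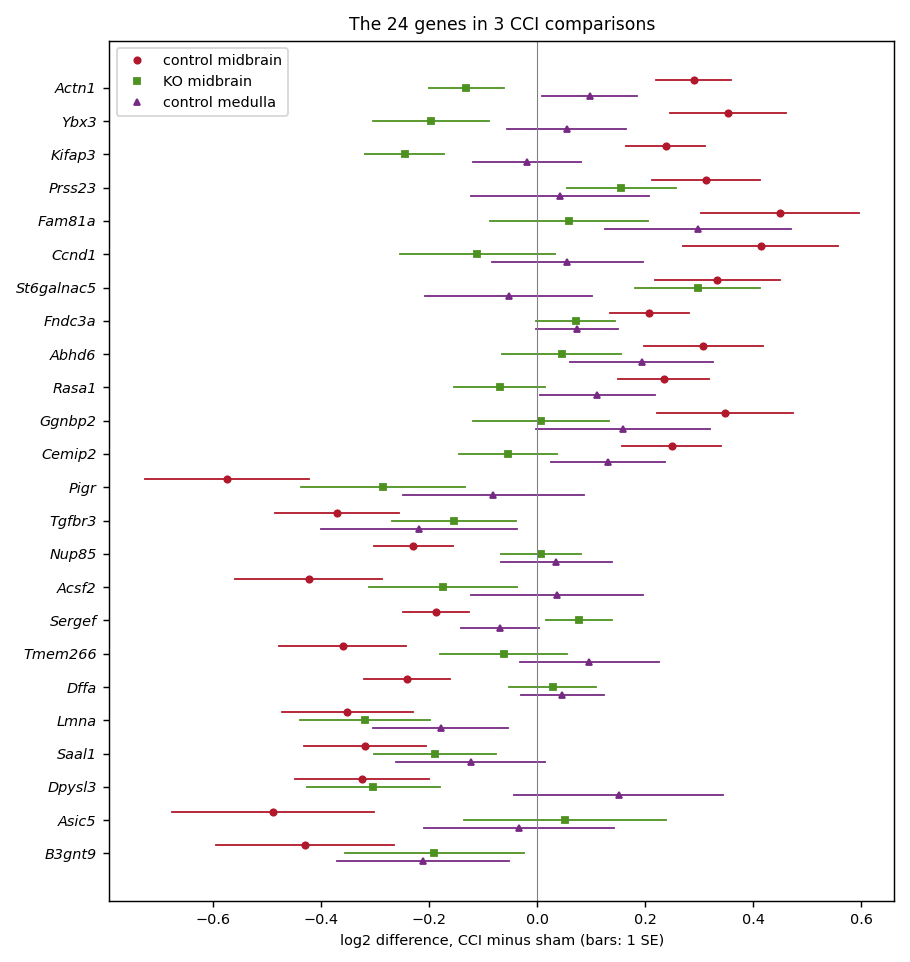
Log2 difference, CCI minus sham, of the 24 genes named by their values in control midbrain, beside the same difference in KO midbrain and in control medulla, with bars of 1 SE from limma. In control midbrain the genes lie on the side that chose them, and in KO midbrain 6 of the 12 higher genes and 4 of the 12 lower genes lie above 0.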

How the data were processed

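The authors deposited 1 table of intensity values for 22690 probe sets and 32 arrays. The values were taken here as linear, background-subtracted fluorescence intensity. Per the labels' protocols, biotinylated cRNA was made from 4 ug of total RNA. The probe summary, background step, scaling and software are not given in the sources used here. Array medians and maxima were already close, and 2.15% of values were at or below 0. After 64 control probe sets were left out, values were floored at 0, 16 was added, log2 taken and the 32 arrays quantile-normalized; printed levels are normalized values with the 16 subtracted again. limma 3.58.1 in R 4.3.3 fitted means of the 4 midbrain groups over 16 arrays, with Benjamini-Hochberg adjustment over 22626 probe sets. The region interaction used all 32 arrays and 8 group means. Within a region each array is a separate mouse per the series design, so p-values measure the spread between mice. For CCI against sham in control midbrain that spread was pooled over the 4 midbrain groups, KO mice included. The median SD of log2 values was 0.16 in KO CCI and 0.23 in KO sham midbrains, beside 0.13 and 0.16 in control CCI and sham midbrains. The number of arrays limits precision as well.

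Of the tested probe sets 20380 carried 1 gene symbol in the platform table, 691 several and 1555 none; probe sets of these last 2 kinds are not named as genes, and the platform annotation can be old. A gene was read at its probe set of highest mean level, except genes named by their values. Those were the 12 per direction of lowest unadjusted p whose arrays did not overlap and whose brighter group averaged at least 100 units; to them were added 40 pain-circuit genes and, after their values were seen, Crym, Ccn3, Car8, Trim47, Herc2 and Neu1. List members with an unadjusted p under 0.05 or non-overlapping arrays were also named by their values. Members and lists were chosen with earlier results of these data known. The fit was tested on simulated data. Alternatives covered normalization, order of steps, pseudocounts of 1 and 64, a filter, variance, array weights, array code, blocks, probe sets per gene, arrays in the fit and single arrays left out. No 2 arrays held identical values.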

Additional observations from a re-analysis of the deposited data

Results flagged for a closer look

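Of 166 groups of 4 arrays examined, 11 had 1 array far from the other 3, by Dixon's test of the gap over the range. Chance alone flags about 1 group in 20 where groups are picked without regard to their values. The count of 11 is not comparable with that share, since Crym, Ccn3 and other genes were examined after their values were seen. In CCI midbrains the flagged groups included Crym, with 374 units on array 3 against 6.83 to 15.8 on the others. Both probe sets of Ccn3 were flagged too, with 475 against 148 to 158 and 497 against 122 to 158 on the same array 3. Oprm1 read 34.7 units on CCI array 1 against 23.6 to 24.6, Tac1 682 on CCI array 4 against 699 to 702, and Kcnd3 18.4 on CCI array 2 against 24.6 to 25.7. In sham midbrains St6galnac5 read 262 units on array 1 against 292 to 294, and Nts 166 on array 1 against 143 to 147. On sham array 2, Ggnbp2 read 98.3 units against 77.4 to 80.4 and Dffa 218 against 186 to 188. Sgk1 read 804 units on sham array 4 against 529.6 to 574 on the other sham arrays.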

How the results depend on the processing

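The count of probe sets differing between CCI and sham in control midbrain was 0 in all 24 alternatives run, with a lowest adjusted p of 0.242 (limma, without CCI array 4), while the number at an unadjusted p under 0.05 ran from 342 to 1315. That number was 1315 with only the 8 arrays compared, 1274 with array weights, 1032 with the code as a 3-level block, 1155 without KO sham 2 and 4 (chosen after seeing the data), 1031 without sham array 1, 775 over the 2 lower array codes pooled (1 of the 2 sham arrays has a code that no CCI array shares) and 1120 within the highest code. The region interaction was 0 in all 31 alternatives (139 to 1359 at an unadjusted p under 0.05, lowest adjusted p 0.0895 with array weights). The genotype interaction was 0 in 28 of 29 (575 to 2233); without KO sham 2 and 4 it was 1 probe set, Gsc, which read 0 on every control midbrain and KO CCI array and 9.77 and 10.9 units on KO sham arrays 1 and 3 (interaction 0.72, adjusted p = 0.00398, limma). The mean correlation of deviations between same-numbered arrays was 0.026 (-0.056 to 0.12), against -0.0086 (-0.12 to 0.11) for other numbers. Of the 8 arrays, 4 correlated best with their own number. These values do not settle whether title numbers pair the arrays. With the title number as a replicate block the 3 counts were 0 each, with 830, 481 and 1473 probe sets at an unadjusted p under 0.05 for surgery, region and genotype, and with the animal as a block 0 for region, with 773 (random block) and 1359 (midbrain minus medulla per animal).

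Over 83 probe sets of named genes, 0 of 1964 alternative values were called; 58, over 25 genes, changed sign. The genes named by their values were chosen for groups that do not overlap, which fixes their sign when arrays are left out. Median centring gave 0.010 for Pnoc, 0.014 for Oprl1 and 0.0026 for Gfap. No further normalization gave -0.0012 for Slc17a6, and array weights 0.012 for Gfap. The 3-level code block gave 0.021 for Penk, 0.024 for Pnoc, -0.29 for Oprm1, 0.053 for Sst, -0.022 for Ntrk2 and 0.091 for Gfap. Over the 2 lower codes pooled the log2 differences were 0.041 for Pomc, -0.21 for Bdnf, 0.32 for Fos, 0.21 for Egr1, -0.050 for Aif1, -0.0069 for Itgam and 0.11 for Slc6a3, and within the highest code 0.020 for Penk, 0.013 for Pnoc, -0.25 for Oprm1, 0.19 for Oprk1, 0.059 for Oprl1, 0.037 for Tacr1, -0.12 for Gal, 0.086 for Cartpt, -0.011 for Ntrk2, -0.0059 for Tlr4, 0.15 for Il1b, 0.035 for Gad2 and -0.0055 for Slc17a6. Leaving out single arrays gave -0.014 to 0.082 for Nts, -0.21 to 0.094 for Il1b, -0.096 to 0.015 for Cck, -0.18 to 0.056 for Gfap, -0.053 to 0.13 for Tlr4, -0.073 to 0.036 for Pnoc, -0.020 to 0.044 for Ntrk2, -0.087 to 0.030 for Sst, -0.13 to 0.0083 for Penk, -0.26 to 0.39 for Oprm1, -0.16 to 0.0012 for Oprk1, -0.065 to 0.11 for Gal, -0.27 to 0.042 for Egr1, -0.16 to 0.029 for Slc6a3, -0.010 to 0.29 for Bdnf and -0.17 to 0.010 for Cnr1. These differences were uncalled under every setting, and the cause of the sign changes was not tested.

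With 4 mice a group, the median 95% interval reached 0.29 log2 units to each side, and the median standard error was larger for dim probe sets, whose signal is close to background. That width is not a detection limit, since after adjustment larger differences did not pass either. The deposited scaling is unknown. Array code and surgery overlap in part, and each code holds few arrays. The sources give no time after surgery, and single arrays carried some differences (cerebellar genes on sham array 3, Crym and Ccn3 on CCI array 3).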
